A study of Mus musculus with 38 samples.

Results

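A group of 409 distal enhancers of cultured mouse cortical neurons already lay in acetylated chromatin before stimulation and were placed by the authors among the sites whose acetylation of histone H3 at lysine 27 (H3K27ac) increased after depolarisation. They were chosen by H3K27ac: the authors' increasing class, and within it a position inside a peak of the H3K27ac list from unstimulated neurons. The H3K27ac values of both conditions are therefore given below as description, without a test. The 409 sites make up 27.9% of the 1468 increasing sites and 3.46% of the 11830 distal sites that the authors listed for CBP and H3K4me1. The other 1059 increasing sites lie outside every unstimulated H3K27ac peak and are called newly acetylated. The 800 sites of the authors' constant class and the 248 sites of the decreasing class that lie inside an H3K27ac peak after KCl serve as further comparisons, because these sites were acetylated in both conditions.

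H3K27ac marks active promoters and enhancers, and H3K4me1 together with the coactivator CBP, which can itself acetylate histones, marks enhancers more broadly. Membrane depolarisation lets calcium into neurons and switches on immediate early genes. Among their products are c-Fos, FosB and JunB, members of the AP-1 family, in which Fos proteins bind DNA as pairs with Jun proteins.

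The neurons came from embryonic day 16.5 cortices of C57BL/6 mice and were used after 7 days in vitro. All groups were first kept silent overnight, with sodium channels blocked by 1 µM TTX and NMDA receptors by 100 µM DL-AP5. The KCl groups were then depolarised with KCl for 2 h, and the unstimulated groups stayed silenced. Neurons infected with c-Fos shRNA, FosB shRNA or control shRNA were silenced and given KCl in the same way. The cultures were labelled as cortical neurons, and the peak lists hold no expression values with which other cell types could be looked for. The study holds 38 samples, of which 12 are input DNA, not analysed here. H3K27ac was mapped in biological samples 1 and 2, whose lists are merged and have no replicates. c-Fos (antibodies sc52 and sc7202) and FosB (sc48) were mapped in biological samples 3 and 4 with and without KCl. JunB (sc46) was mapped in biological sample 4 in both conditions. The shRNA groups come from biological samples 5 and 6, with sc52 or sc48. Each AP-1 list is 1 library, and the lists held between 557 and 28885 peaks. No read numbers are given, so sequencing depth is unknown and cannot be told apart from occupancy in the share of sites that lie inside a peak. Positions are those of genome build mm9.

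The H3K27ac peaks around the pre-acetylated enhancers were larger and stronger after KCl. The peak score, which rises with the negative log10 of the peak's p-value, had a median of 632 in the KCl list and 126 in the unstimulated list. It was higher in the KCl list at 406 of the 409 sites, with a median ratio of 4.09. The middle 50% of the sites scored between 373 and 1071 after KCl and between 75.1 and 248 without stimulation. The constant sites had a median score of 375 after KCl and 392.5 without stimulation, and the decreasing sites that kept a KCl peak had 138 after KCl and 722 without stimulation. The newly acetylated sites had a median KCl score of 152. After KCl, the median pre-acetylated site thus lay in a stronger peak than the medians of the other 3 classes, and before stimulation in a weaker peak than the median constant site. Within each list, the median rank of the peaks at the pre-acetylated sites, counted as a percentile from the best score, was 31.5% in the KCl list of 29418 peaks and 70.8% in the unstimulated list of 30239 peaks. The score 3100 was shared by 1487 KCl peaks, 13 of the members among them, so it does not order the strongest sites.

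**Figure D1:**
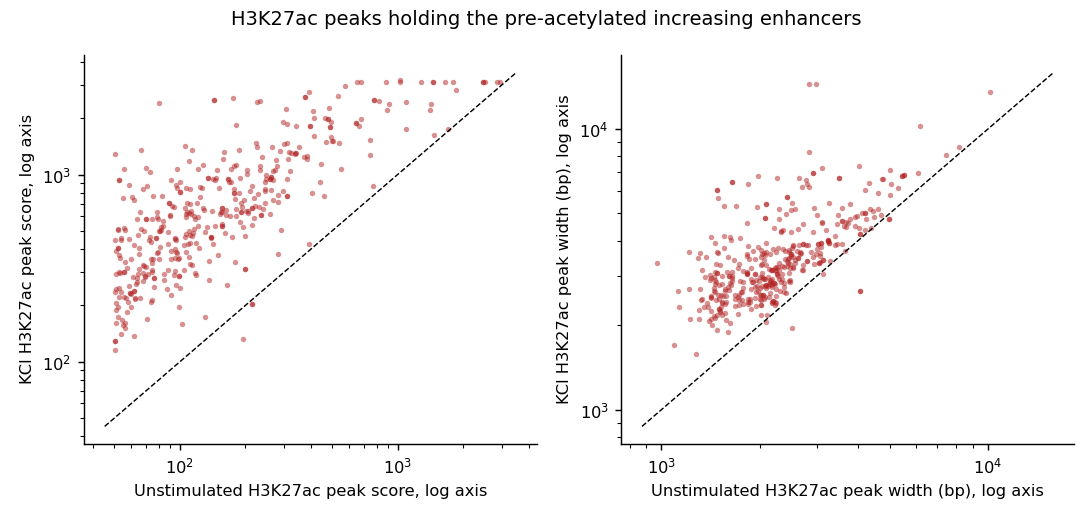
Each point is 1 of the 409 pre-acetylated increasing enhancers. The left panel sets the score of the H3K27ac peak that holds it after KCl (vertical) against the score in unstimulated neurons (horizontal), and the right panel does the same for peak width in bp; all axes are logarithmic and the dashed line marks equal values. The score is above the line at 406 sites and the width at 402.

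The peaks were also wider after KCl. The KCl peak had a median width of 3245 bp and the unstimulated peak 2167 bp, a median difference of 955 bp that ranged from −1415 to 11642 bp, and the KCl peak was the wider one at 402 sites and the narrower one at 7. Both edges lay farther out after KCl at 376 sites and 1 edge at 33. The median extension was 437 bp on the side of lower coordinates and 449 bp on the other, so the medians of both sides were close. At 1000 bp from the site, the KCl peak still reached 93.2% of the enhancers on the lower side and 93.6% on the upper side, against 59.2% and 55.3% for the unstimulated peak. At constant sites, the KCl peak was wider in 386 of 800 cases, with a median difference of −12.5 bp. At the decreasing sites with a KCl peak, the median difference was −969.5 bp. At 393 sites the KCl peak replaced a single unstimulated peak. It spanned 2 unstimulated peaks at 14 sites and 3 at 2 sites, so a KCl peak that joined neighbouring unstimulated peaks was the exception.

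**Figure D2:**
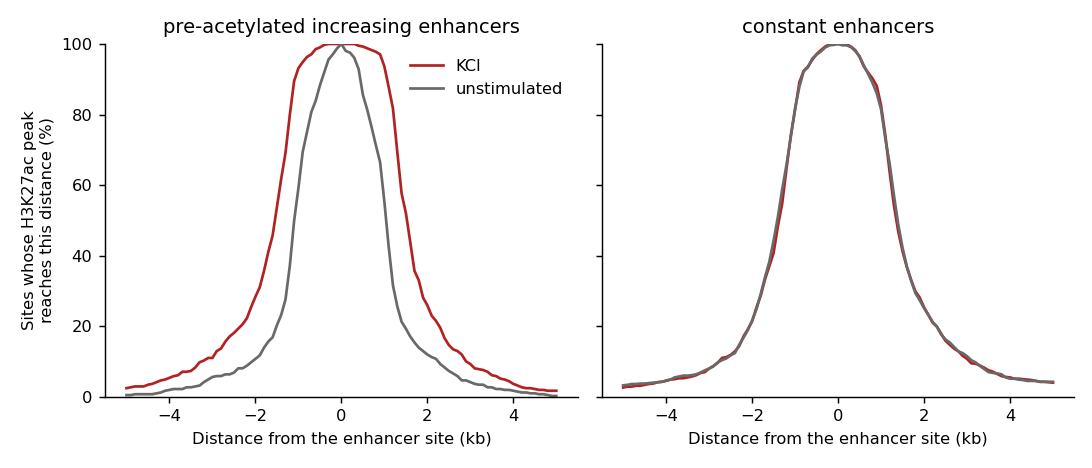
The share of sites, in percent, whose H3K27ac peak reaches a given distance from the enhancer site, in kb, for the pre-acetylated increasing enhancers (left) and the constant enhancers (right), after KCl (red) and in unstimulated neurons (grey). At the pre-acetylated sites the KCl curve lies outside the unstimulated curve on both sides, while the curves of the constant sites nearly coincide.

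The difference in width varied widely among the members. The largest gain was at chromosome 2, where sites at 69993610 and 69988680 shared 1 KCl peak of 14464 bp (69984781 to 69999244, score 2484) and had separate unstimulated peaks of 2822 and 2968 bp with scores of 234 and 820. The next largest was at chromosome 15, position 79601270, with a KCl peak of 8280 bp and an unstimulated peak of 2834 bp. At the other end, sites at 28019675 and 28019045 of chromosome 9 lay together in a KCl peak of 2637 bp with a score of 203, against an unstimulated peak of 4052 bp with a score of 214. At these sites both measures went against the authors' increasing class. Both also did so at chromosome 12, 21146925, which had the lowest score ratio of the members (0.681). Its KCl peak was 2048 bp with a score of 133, and its unstimulated peak 2085 bp with a score of 195. The site at 99788450 of chromosome 12 had a KCl peak of 1962 bp with a score of 159 and an unstimulated peak of 2520 bp with a score of 102, so its score and its width moved in opposite directions.

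The rule draws its line at the edge of the unstimulated peak. The median member lay 770 bp inside the nearer edge, and 13 members lay within 100 bp of it. The nearest 3 were at chromosome 12, 99841230 (0 bp inside, KCl H3K27ac score 954), chromosome 12, 109783350 (4 bp, 508) and chromosome 2, 115847920 (11 bp, 1743). Just outside were increasing sites at chromosome 1, 79333450 (35 bp outside, KCl H3K27ac score 328), chromosome 16, 17030380 (63 bp, 303) and chromosome 14, 22342085 (75 bp, 768). Within 500 bp of an unstimulated peak lay 31 newly acetylated sites, and the median newly acetylated site was 14763 bp from one.

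The members were spread over 375 unstimulated H3K27ac peaks. Of these peaks, 341 held 1 member and 34 held 2, which lay between 405 and 4080 bp apart (median 712.5 bp), so members in a shared peak are not independent. Near neighbours were more common than in the other classes: another of the 11830 distal sites lay within 2000 bp of 116 members (28.4%), against 15.1% of newly acetylated sites, 20.6% of constant sites and 13.5% of all distal sites. In 26 cases a member shared its KCl peak with a newly acetylated site, in 3 with a constant site and in 0 with a decreasing one. All but 7 members were in the authors' list of distal unstimulated H3K27ac peaks. Chromosome 13 held 38 members (9.29%, against 5.49% of all distal sites), chromosome 1 held 37, chromosome 2 held 36 and the X chromosome 1. Chromosome 13 also held 108 of the 1468 increasing sites. Of these 108, 35.2% were members, against 27.9% of all increasing sites.

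c-Fos peaks were nearly absent from these enhancers before depolarisation and common after it. The step that chose the members within the increasing class did not use c-Fos, and how the authors made that class was not stated. With sc52, 57.0% of the 409 sites lay inside a c-Fos peak after KCl in biological sample 3 and 29.3% in sample 4, against 0.733% and 0% in unstimulated neurons. With sc7202, the shares were 70.4% and 57.0% after KCl, against 0.244% and 0% in unstimulated neurons. Finding 0 of 409 sites allows a share of up to 0.733%, counting error only. The 4 KCl libraries averaged 53.4% ± 17.3 and the 4 unstimulated libraries 0.244% ± 0.346 (SD, n = 4 each), and the lowest KCl share was far above the highest unstimulated one. The difference was 53.2 percentage points (p = 0.0286 by an exact two-sided permutation of the libraries, 4 against 4, which can give no smaller p). Each condition was mapped in only 2 biological samples. Paired by sample and antibody, the exact sign-flip p was 0.125, which is the lowest value for 4 pairs, and the call at 0.05 was lost. These 4 pairs are 2 antibodies on the same 2 biological samples, so they are not independent. With all lists reduced to the 557 best peaks of the shortest, the difference was 3.61 points (exact permutation p = 0.0286), and at a score of at least 100 it was 35.02 points, so its size depends on the length of the lists.

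Of the members, 105 (25.7%) had a c-Fos peak in all 4 KCl libraries and in 0 of 4 unstimulated ones. The share was 24.0% in newly acetylated sites and 11.4% in all 11830 distal sites. A c-Fos peak in at least 1 of the 4 unstimulated lists was found at 4 members (0.978%), against 2.67% of all distal sites. The reverse pattern, all 4 unstimulated libraries and 0 of 4 KCl ones, occurred at 0 members and at 0 of all distal sites. In silenced neurons, the pre-acetylated enhancers thus had almost no c-Fos peak. At least 1 unstimulated list had one at 0.850% of newly acetylated sites, so the members were not set apart from these. The share was 2.25% at constant sites and 4.84% at decreasing sites with a KCl peak. The unstimulated lists were also shorter, with 557 to 3669 peaks against 6808 to 28885 in the 4 KCl lists.

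All 4 members scored higher after KCl than unstimulated in the list pair of the same antibody and sample. The site at 64352360 of chromosome 1 scored 204 in the KCl sc7202 list of biological sample 3 and 54.5 in the unstimulated list of the same antibody and sample. The site at 100089040 of chromosome 1 scored 327 in the KCl sc52 list and 104 in the unstimulated list of sample 3. The site at 99405335 of chromosome 5 scored 496 after KCl and 62.9 unstimulated in the same pair of lists, and it also held unstimulated peaks of FosB (score 51.5) and JunB (score 154). The site at 3641395 of chromosome 11 scored 121 in the KCl sc52 list and 52.0 in the unstimulated list of sample 3, and it also held an unstimulated FosB peak (score 68.55).

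FosB and JunB followed the same course. FosB peaks covered 26.2% of the members after KCl in biological sample 3 and 19.3% in sample 4, against 0% and 0.978% in unstimulated neurons. The difference of 22.2 percentage points cannot pass a test with 2 libraries against 2 (exact two-sided permutation p = 0.33, the smallest possible). It was 12.7 points at a score of at least 100 and 10.8 with lists of the same length. A FosB peak in both KCl libraries and 0 of 2 unstimulated ones was found at 51 members (12.5%). The share was 9.92% in newly acetylated sites and 5.18% in all distal sites. JunB peaks covered 57.7% of the members after KCl and 1.96% without stimulation in the single pair of libraries. At 229 members (56.0%) JunB had a peak only in the KCl list of the pair. This held for 55.8% of newly acetylated sites and 37.0% of all distal sites. Of the 8 members with an unstimulated JunB peak, 7 kept one after KCl.

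**Figure D3:**
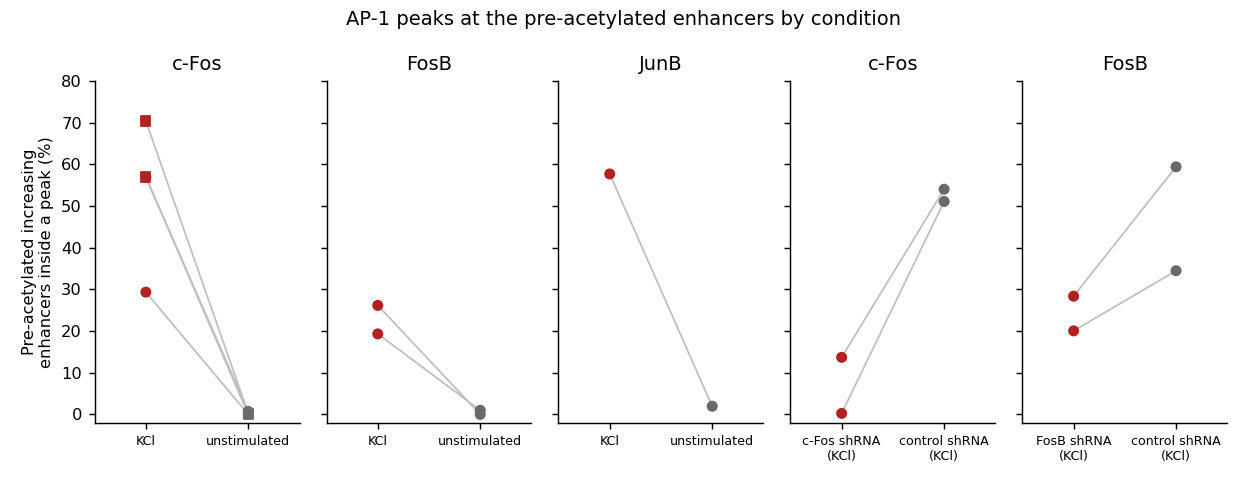
The vertical axis gives the share of the 409 pre-acetylated increasing enhancers that lie inside a peak, in percent. Each point is 1 library and lines join libraries of the same biological sample and antibody (circles sc52, sc48 or sc46, squares sc7202). KCl libraries without c-Fos shRNA or FosB shRNA lie between 19.3% and 70.4% and all unstimulated libraries at or below 1.96%; under c-Fos shRNA and FosB shRNA both libraries lie below their control shRNA partners.

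The shRNA libraries address whether the peaks depend on the protein that the antibody was raised against. Under c-Fos shRNA, c-Fos peaks covered 13.7% of the members in biological sample 5 and 0.244% (1 site) in sample 6, against 54.0% and 51.1% with control shRNA. The difference of −45.6 percentage points held in both samples, and 2 libraries against 2 cannot pass a test (exact two-sided permutation p = 0.33, the smallest possible). With lists of the same length it was −8.68 points. At 133 members (32.5%) both control libraries and 0 of 2 c-Fos shRNA libraries had a peak, against 36.3% of newly acetylated sites and 21.8% of all distal sites. The reverse occurred at 0 members. With control shRNA, c-Fos peaks covered a mean of 52.6% of members and 34.4% of all distal sites, so members had more peaks to lose.

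Of the members with a control c-Fos peak, 51 of 221 (23.1%) kept one under c-Fos shRNA in biological sample 5 and 1 of 209 (0.478%) in sample 6. In newly acetylated sites 16.9% and 0.528% kept theirs, in constant sites 19.5% and 1.14%, and over all distal sites 15.5% (652 of 4206) and 1.07% (42 of 3935). The mean difference between members and newly acetylated sites was 3.08 percentage points and that between members and constant sites 1.45 (exact sign-flip p = 1 for each, n = 2 samples, smallest possible 0.5), and the 2 samples differed in direction. With lists of the same length these differences were 5.30 (exact sign-flip p = 0.5) and 6.77 points (exact p = 1). The samples thus differed far more from each other than the classes did. The c-Fos shRNA list held 7808 peaks in sample 5 and 1793 in sample 6, against 23578 and 19131 with control shRNA. The part of list length in the gap between the samples was not tested. The single site covered in both c-Fos shRNA lists was at chromosome 2, 29176170. Its c-Fos score was 94.9 under c-Fos shRNA and 230 with control shRNA in sample 5, and 66.3 under c-Fos shRNA and 480 with control shRNA in sample 6.

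The FosB libraries gave the same direction. Under FosB shRNA, FosB peaks covered 28.4% of the members in biological sample 5 and 20.05% in sample 6, against 59.4% and 34.5% with control shRNA. The difference was −22.7 percentage points (exact two-sided permutation p = 0.33, n = 2 against 2, the smallest possible), and −6.48 with lists of the same length (exact permutation p = 0.67). At 44 members (10.8%) both control libraries and 0 of 2 FosB shRNA libraries had a peak, against 7.55% of all distal sites, and the reverse occurred at 4 members, against 0.414%. With control shRNA, FosB peaks covered a mean of 46.9% of members and 33.2% of all distal sites. Of the members with a control FosB peak, 42.0% kept one in sample 5 and 43.3% in sample 6, against 41.6% and 39.8% of all distal sites with one, so the members lay near the background. The median width of the FosB peaks was 767 bp in the control list of sample 5 and between 176 and 254 bp in the other 7 FosB lists, and a wider peak can hold more sites; its part in the shares was not tested.

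After KCl, the pre-acetylated enhancers carried c-Fos more often than the constant enhancers and the decreasing enhancers with a KCl peak, and their mean share lay 1.49 percentage points above that of the newly acetylated ones. Over the 6 KCl c-Fos libraries, control shRNA included, the share averaged 53.1% ± 13.4 in members, 51.7% ± 13.4 in newly acetylated sites, 24.5% ± 9.03 in constant sites and 20.5% ± 8.71 in decreasing sites with a KCl peak (SD, n = 6). Within a library, members exceeded constant sites by 28.6 ± 4.87 percentage points (SD over 6 libraries; higher in 6 of 6, exact sign-flip p = 0.03125, Benjamini-Hochberg adjusted over 3 comparisons 0.0469). They exceeded the decreasing sites by 32.6 ± 5.89 points (higher in 6 of 6, exact sign-flip p = 0.03125, adjusted 0.0469). Averaged within the 4 biological samples, the differences were 28.7 and 32.985 points, with an exact p = 0.125, the smallest that 4 samples allow, so both calls were lost. The 3 comparisons share the same members.

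The difference from newly acetylated sites did not pass the test. It was 1.49 ± 2.34 percentage points (exact sign-flip p = 0.219 before and after adjustment, n = 6 libraries), positive in 5 libraries and negative in 1. By library it was 4.28 and 2.24 with sc52 in biological samples 3 and 4, 2.14 and 2.48 with sc7202, and 0.304 and −2.54 with control shRNA in samples 5 and 6. The libraries thus gave both directions, and the mean difference was smaller than their spread.

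**Figure D4:**
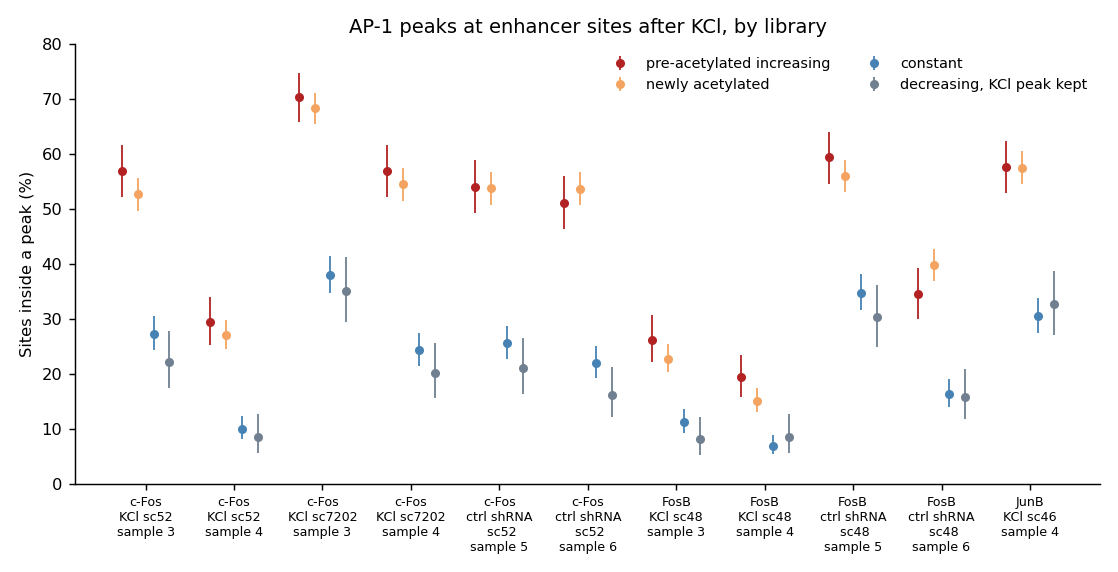
The share of sites, in percent, that lie inside a peak in each KCl library, for the 409 pre-acetylated increasing, 1059 newly acetylated, 800 constant and 248 decreasing sites with a KCl peak (left to right within a library). Bars are Wilson 95% intervals, which cover counting error only. Pre-acetylated and newly acetylated sites lie close together and above the other classes in all 11 libraries.

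In the mean over libraries, FosB gave the same order of the classes. It covered 34.8% ± 17.5 of the members, 33.4% ± 18.2 of newly acetylated, 17.3% ± 12.3 of constant and 15.6% ± 10.4 of decreasing sites (SD, n = 4 KCl libraries). Members exceeded constant sites by 17.5 points in the mean and in 4 of 4 libraries, and decreasing sites by 19.2 points in 4 of 4 (exact sign-flip p = 0.125 for each, the smallest that 4 libraries allow, adjusted 0.1875). Against newly acetylated sites the mean difference was 1.44 points, positive in 3 of 4 libraries (exact sign-flip p = 0.625). In the single KCl JunB library, members differed by 0.195 points from newly acetylated, 27.2 from constant and 25.04 from decreasing sites.

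The constant sites had stronger H3K27ac before stimulation than the members, so the share with c-Fos was also compared at like unstimulated scores. Over the 6 libraries, members and constant sites averaged 46.4% (102 sites) and 31.8% (32 sites) at scores of 50 to 75, 54.2% (126) and 24.1% (125) at 75 to 150, 54.5% (100) and 25.4% (166) at 150 to 300, and 58.2% (81) and 23.8% (477) at 300 and above. The members had the higher mean share in each band. Between 75 and 300 the difference was 29.5 percentage points (exact sign-flip p = 0.03125, n = 6 libraries), a setting added after the scores were seen. Averaged within the 4 biological samples, it was 29.7 points with an exact p = 0.125, the smallest possible, so this call was lost too.

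The comparison with newly acetylated sites changed with the strength of the KCl peak. Members had stronger KCl peaks, and among sites with KCl scores of 150 to 600, a setting added after these scores were seen, 46.2% ± 12.8 of 183 members and 54.1% ± 12.8 of 437 newly acetylated sites lay in a c-Fos peak (SD, n = 6 libraries). This difference of −7.91 percentage points was negative in 6 of 6 libraries (exact sign-flip p = 0.03125, not adjusted for the choice of the band). Averaged within the 4 biological samples it was −8.31 points with an exact p = 0.125, the smallest possible, so the call was lost. By band, members and newly acetylated sites averaged 37.2% (64 sites) and 51.5% (293 sites) at scores of 150 to 300, and 51.0% (119) and 59.4% (144) at 300 to 600. The order was the other way round in stronger peaks, with 58.5% (130) and 56.4% (60) at 600 to 1200, and 60.2% (90) and 50.9% (39) at 1200 and above. Below 150 there were only 6 members.

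Recurrence across libraries varied among the members. Of the 409, 95 (23.2%) lay in a c-Fos peak in all 6 KCl lists, against 11% of all distal sites, and 92 (22.5%) in none, against 43.4%. A further 72 were covered in 5 lists, 57 of which lacked only the sc52 list of biological sample 4, the shortest of the 6. Between 37 and 38 members fell into each of the counts 1 to 4. Of the constant sites, 59 of 800 were covered in all 6 lists and 430 in none. In biological sample 3, both antibodies gave a peak at 223 members, sc7202 alone at 65 and sc52 alone at 10; in sample 4 the counts were 114, 119 and 6. sc52 thus added few sites to those of sc7202.

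**Figure D5:**
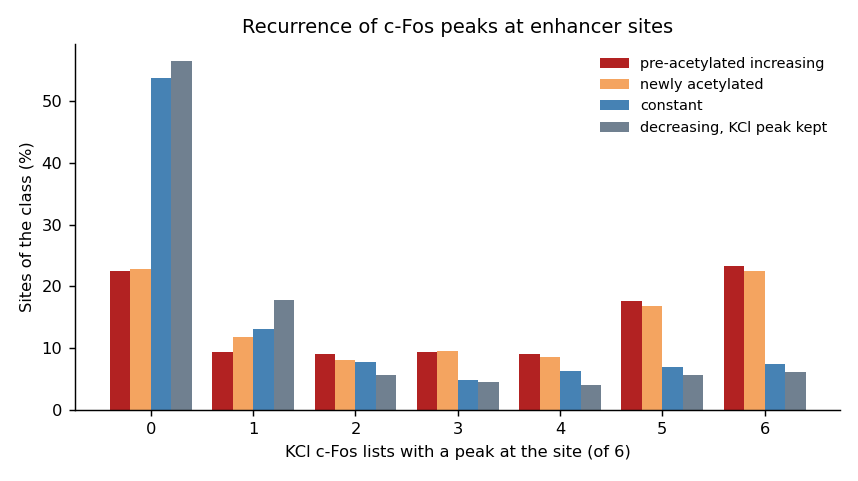
Bars give the share of sites of each class, in percent, by the number of the 6 KCl c-Fos lists in which the site lies inside a peak. Of the pre-acetylated increasing sites, 22.5% had no list and 23.2% all 6, close to the newly acetylated sites, while 53.75% of constant sites had none.

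Members with c-Fos in all 6 lists had a median H3K27ac score of 817 after KCl and 149 unstimulated, and those with none had 520 after KCl and 112 unstimulated. Over the 409 sites, the number of lists had Spearman's rho of 0.20 with the KCl score and 0.11 with the unstimulated score, a weak relation between sites that share libraries and depth. Where a c-Fos peak covered a member, its centre lay a median of 62.9 bp from the enhancer site, averaged over the 6 libraries, and 65.2 bp at constant sites. The authors' combined c-Fos list had a site within 500 bp of 156 members (38.1%, Wilson 95% interval 33.6 to 42.9%), 43.9% of newly acetylated sites (40.9 to 46.9%), 17.1% of constant sites and 26.3% of all distal sites. In that list, the share was lower in members than in newly acetylated sites, but the intervals, which cover counting error only, overlapped. The mean over the single libraries had the other order under both distance rules. Members lay 1.49 percentage points higher for sites inside a peak and 2.53 higher for a peak edge within 500 bp. Neither difference passed the test (exact sign-flip p = 0.219 and 0.09375). Why the combined list had another order was not tested.

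The 5 members with the most recurrent and best ranked c-Fos peaks showed c-Fos, FosB and JunB together. The first was at chromosome 15, position 59312325, in a KCl H3K27ac peak from 59310814 to 59313748 (score 1026) and an unstimulated one from 59311181 to 59312830 (score 73.0). Its c-Fos scores were 960, 410, 1476, 832, 750 and 839 in the 6 KCl lists, and it had no c-Fos peak in the 4 unstimulated lists. It also carried FosB in 4 of 4 KCl lists and JunB (score 908), and its c-Fos score under c-Fos shRNA was 142 in biological sample 5, against 750 with control shRNA. This enhancer thus had a faint H3K27ac peak before KCl and strong AP-1 peaks after it.

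The second, at chromosome 2, 165681500, lay in strong H3K27ac peaks in both conditions, with scores of 2834 after KCl and 1850 unstimulated. The others were at chromosome 19, 37982665 (H3K27ac scores 937 after KCl and 91.3 unstimulated), chromosome 16, 94431425 (423 after KCl and 61.6 unstimulated) and chromosome 4, 48767805 (916 after KCl and 168 unstimulated). All 5 had FosB in 4 of 4 KCl lists, JunB after KCl, no c-Fos peak in unstimulated neurons, and a c-Fos peak left in the c-Fos shRNA list of biological sample 5 but not in that of sample 6.

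Strong H3K27ac also occurred with no c-Fos peak at the enhancer site itself. Of the 92 members without c-Fos in 6 lists, those at chromosome 4, 129173555 (H3K27ac score 3100 after KCl and 1280 unstimulated) and chromosome 2, 70004535 (3100 after KCl and 2472 unstimulated) shared the highest KCl score. The site on chromosome 4 had a FosB peak in 1 of 4 KCl lists and no JunB peak. The site on chromosome 2 and the next, at chromosome 11, 31660185 (2507 after KCl and 776 unstimulated), had no AP-1 peak in any KCl list. Both shared their H3K27ac peaks with another member, so each score belongs to a pair of members. The neighbour at chromosome 2, 70008615, had c-Fos in 6 KCl lists, FosB in 4 and JunB. The neighbour at chromosome 11, 31659575, had c-Fos in 1 list. Of the 92, 11 had FosB in at least 1 list and 7 had JunB. In all, 77 members (18.8%) had no peak in any of the 11 KCl lists of c-Fos, FosB and JunB, against 35.8% of all distal sites. The share was 18.5% in newly acetylated, 45.1% in constant and 46.8% in decreasing sites with a KCl peak.

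The 3 proteins were found together at some members and apart at others. In biological sample 4, where all were mapped, 74 members (18.1%) had c-Fos (either antibody), FosB and JunB after KCl, 129 (31.5%) had c-Fos and JunB without FosB, 35 had c-Fos alone, 31 had JunB alone, 2 had FosB alone and 135 (33.01%) had none. Among newly acetylated sites, 14.4% had all 3, 32.6% had c-Fos and JunB without FosB and 34.1% had none; among constant sites these shares were 5%, 14.5% and 63.25%. Of the members with a FosB peak, 93.5%, 73.4%, 82.7% and 90.8% also had a c-Fos sc52 peak in biological samples 3 to 6. Among constant sites these shares were 92.2%, 50.9%, 61.5% and 77.9%, so in sample 3 the members lay close to the constant sites. Of the members with a c-Fos sc52 peak, 42.9%, 48.3%, 90.95% and 61.2% also had a FosB peak in the same samples. Among constant sites these shares were 38.1%, 35%, 83.4% and 58.0%. The share thus depends on which list it is taken from. Of the 95 members with c-Fos in all 6 lists, 94 had JunB and 43 had FosB in all 4 lists. Within a biological sample the lists differ in length, so a site without FosB and a FosB peak that was not called cannot be told apart.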

How the data were processed

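Peak lists from ChIP-seq were used as deposited. Reads were aligned with BWA to mm9, per the submitters' processing notes. Peak names begin with MACS, per the deposited files; the sources used here name neither its version nor the control library. The authors' score rises with the negative log10 of the peak's p-value, and the lists start at 50, which stands for 1e-05. Each AP-1 list is 1 library; H3K27ac lists merge biological samples 1 and 2, per the labels. Other deposited values are site positions, and the making of the classes and of the combined c-Fos sites was not stated.

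A site was covered when it lay inside a peak. Shares were compared over libraries with exact permutation and sign-flip tests, two-sided, at 0.05, with Benjamini-Hochberg adjustment over 3 comparisons. Same-numbered libraries come from the same biological sample, per the labels, so the numbers pair them. Whether biological samples are separate cultures is not stated, so p-values measure only the spread between these libraries. Wilson 95% intervals and limits from 0 sites (3 counts of the total) cover counting error only. Members, comparison classes and tests were chosen with earlier results of these data known. The sites named were those with c-Fos in the most KCl, unstimulated or c-Fos shRNA lists (ties by mean rank), the strongest without c-Fos, those nearest the edge of an unstimulated peak and those with the largest or smallest change in width. The sites on chromosome 11 at 3641395 and chromosome 12 at 21146925, and the named neighbours in shared peaks, were added after their values were seen. Alternatives were a score of at least 100, other distance rules, 1 site per H3K27ac peak, lists of the same length, single antibodies, each biological sample left out and pairing. The steps were tested on simulated data. Sequences, motifs and nearby genes were not analysed here, because no mm9 genome or annotation was used. Python 3.11.15, numpy 2.4.6, pandas 2.3.3, scipy 1.17.1 and matplotlib 3.10.9 were used.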

Additional observations from a re-analysis of the deposited data

Results flagged for a closer look

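In 3 of 10 groups of libraries, 1 library stood apart from the others by the gap to its neighbour relative to the range. Chance gives about 1 such group in 20 where groups are independent. These groups share members and libraries, so the count cannot be set against that rate. In the c-Fos comparison of pre-acetylated with constant enhancers, the sc52 library of biological sample 4 after KCl had a difference of 19.3 percentage points, against 28.4 to 32.7 in the other 5. In the comparison with decreasing enhancers the same library had 20.9 points, against 33.1 to 36.8. This list was the shortest of the 6, with 6808 peaks, and covered the lowest share of members (29.3%). In the FosB comparison with newly acetylated enhancers, the control shRNA library of biological sample 6 had −5.28 points, against 3.40 to 4.21 in the other 3.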

How the results depend on the processing

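Of 156 values under alternatives, 126 were labelled the same. For tested differences this meant the same direction and the same side of 0.05, whatever the size. Where no setting could reach 0.05, the label needed only the same direction. A c-Fos shRNA difference of −8.68 points instead of −45.6 thus counted as the same. Counts had to stay within 1.5 times, and JunB differences and peak widths were judged by the size of the change. Depth is unknown and the lists differ in length, which limits every share, and 2 libraries against 2, or 4 paired values, cannot pass 0.05. The c-Fos difference between KCl and unstimulated neurons was 53.2 percentage points when paired by sample and antibody (exact sign-flip p = 0.125). It was 42.8 with sc52 alone, 63.6 with sc7202 alone and 43.2 to 63.2 with a biological sample left out. None of these settings allows a p under 0.05. In the replicate block, libraries were averaged within a biological sample. The c-Fos difference of members from constant enhancers was 28.7 with the replicate block, 28.5 in libraries without shRNA, 26.6 with sc52 alone and 27.4 to 29.9 with a sample left out. That from decreasing enhancers was 32.985, 31.95, 30.9 and 31.4 to 34.5. With so few libraries or samples these too cannot pass. At unstimulated H3K27ac scores of 75 to 300, the difference from constant enhancers was 29.7 with the block (exact p = 0.125), which lost that call as well. The difference from newly acetylated enhancers was 0.623 to 2.29 with a sample left out and turned to −7.91 at KCl H3K27ac scores of 150 to 600, a band chosen after seeing the data, and to −8.31 there with the block (exact p = 0.125); the cause was not tested. The share of sites kept under c-Fos shRNA differed by −0.0497 to 6.21 points from newly acetylated and −0.658 to 3.56 from constant enhancers with a sample left out, negative without sample 5. The c-Fos shRNA difference was −50.9 to −40.3 and the FosB shRNA difference −31.1 to −14.4. The FosB difference between KCl and unstimulated neurons was 18.3 to 26.2. The FosB differences were 15.2 to 19.2 from constant, 15.898 to 22.01 from decreasing and 0.514 to 3.68 from newly acetylated enhancers. The JunB difference between KCl and unstimulated neurons was 37.7 at a score of at least 100, 49.4 for peak centres within 200 bp and 20.5 with lists of the same length. Members with c-Fos in all lists numbered 36 at a score of at least 100 and 99 to 160 with a sample left out (160 without sample 4), and those with c-Fos in none 156 and 95 to 128.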
